A study of Homo sapiens with 36 samples.

Results

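The MAGE genes share a conserved stretch, the MAGE homology domain, and 9 of them are described here: MAGEH1, MAGEE1, MAGEE2, MAGED1, MAGED2, MAGEF1, MAGEL2, NDN and NSMCE3. They were picked by symbol from the 62710 genes of the deposited count table and table of TPM, a transcript abundance scaled by gene length, with their levels in view, since MAGEH1 and MAGEE1 had been noted as silent in unedited cells and active in edited ones. The levels of MAGEH1 and MAGEE1 against WT are therefore described without a test. RNA came from H9, an established human embryonic stem cell line, carrying no RAI1 edit (WT), RAI1 disrupted on 1 allele (HET) or on both (KO). Each genotype was sampled at days 0, 3 and 7 of neuronal induction, giving 9 groups of 4 libraries and 36 libraries in all. All groups, WT included, went through the same induction, in which doxycycline switches on the proneural factor NGN2. The labels call the 4 libraries of a group biological replicates. The sources used here do not give how many independently edited clones stand behind HET or KO, so genotype and clone cannot be told apart, and p-values measure the spread between these libraries.

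Type I MAGE genes lie on the X chromosome and are normally restricted to the germ line and tumours. Type II genes, to which the 9 genes belong, are expressed in many tissues including brain. Many MAGE proteins bind RING-type ubiquitin ligases through the homology domain and alter what the ligase acts on. As imprinted genes, NDN and MAGEL2 are expressed from the paternal chromosome in the Prader-Willi region of chromosome 15.

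Library totals ran from 23948079 to 56678796 counts. Over 54 pairs of replicates the correlation across genes lay between 0.937 and 0.989. Levels below are CPM, counts scaled to a common library size with TMM factors over the 36 libraries, as mean ± SD with n = 4 unless stated. RAI1, the edited gene, was at 33.5 ± 8.26 CPM in WT at day 0, with 38.1 ± 7.84 in HET and 37.1 ± 12.3 in KO, and at 52.3 ± 15.3, 73.3 ± 15.7 and 84.6 ± 14.2 at day 7, so RAI1 counts do not check the genotype labels. The summed level of 6 pluripotency markers in WT was 2694 CPM at day 0 and 70.1 at day 7, and that of 7 neuronal markers was 357 and 8920. The shared iNeuron label thus covers undifferentiated cells at day 0. In 36 libraries the summed level of 3 astrocyte markers stayed between 0.129 and 2.12 CPM and that of 4 mesendoderm markers between 0.0518 and 5.46.

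The stretches of 250 bases upstream of the annotated start of 4 of these genes are shown first, because MAGEE1 and MAGEE2 lie in one region of X and differed in KO, and because NDN and MAGEL2 lie side by side and both rose in KO. They were taken from RefSeq on GRCh38.p14, which held a promoter entry for 8 of the 9 genes, MAGEH1 being the exception. Each reads 5′ to 3′ on the strand of its gene, and capitals mark CG dinucleotides, the sites at which human DNA is mainly methylated.
MAGEE1, chrX:76427460-76427709, plus strand: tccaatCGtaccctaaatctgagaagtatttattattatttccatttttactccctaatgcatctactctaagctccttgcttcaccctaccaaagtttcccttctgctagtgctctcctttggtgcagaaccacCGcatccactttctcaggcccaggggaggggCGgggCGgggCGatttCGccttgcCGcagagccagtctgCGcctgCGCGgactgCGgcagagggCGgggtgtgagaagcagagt
MAGEE2, chrX:75785255-75785504, minus strand: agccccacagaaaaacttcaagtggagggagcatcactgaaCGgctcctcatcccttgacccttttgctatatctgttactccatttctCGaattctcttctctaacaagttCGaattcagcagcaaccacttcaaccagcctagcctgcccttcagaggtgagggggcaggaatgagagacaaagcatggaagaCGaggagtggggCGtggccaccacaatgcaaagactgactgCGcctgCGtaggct
NDN, chr15:23687306-23687555, minus strand: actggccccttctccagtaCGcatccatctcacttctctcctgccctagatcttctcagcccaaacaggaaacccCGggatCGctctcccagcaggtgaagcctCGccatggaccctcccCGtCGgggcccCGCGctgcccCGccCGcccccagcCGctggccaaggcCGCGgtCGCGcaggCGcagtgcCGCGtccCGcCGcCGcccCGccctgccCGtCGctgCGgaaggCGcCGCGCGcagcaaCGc
MAGEL2, chr15:23647868-23648117, minus strand: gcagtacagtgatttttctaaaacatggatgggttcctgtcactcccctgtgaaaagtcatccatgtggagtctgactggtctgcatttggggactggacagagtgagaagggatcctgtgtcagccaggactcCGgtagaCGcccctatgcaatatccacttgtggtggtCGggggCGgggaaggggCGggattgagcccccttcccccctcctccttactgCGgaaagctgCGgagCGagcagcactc
The MAGEE1 stretch holds 12 CG sites, near the median of 11 over the 35116 promoters of the table, and 53.4% of promoters hold as many or fewer. MAGEE2 holds 7 (43.7% hold as many or fewer) and MAGEL2 holds 8 (45.9%). NDN is the richest of the 4, with 30 CG sites and a GC content of 73.2%, and 89.1% of promoters hold as many or fewer. The letters CANNTG, the core bound by basic helix-loop-helix factors such as NGN2 and identical on both strands, occur 3 times upstream of MAGEL2, 1 time upstream of NDN, 1 time upstream of MAGEE2 and 0 times in the MAGEE1 stretch. They occur in 61.8% of all promoters of this length, so a match describes the sequence only.

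MAGEH1 (ENSG00000187601, chromosome X, 55452105 to 55453566, plus strand, GRCh38) encodes a small MAGE protein reported to bind the neurotrophin receptor NGFR. It was not counted once in any of the 12 WT libraries. At day 0 it stood at 13.5, 11.2, 10.8 and 13.4 CPM in the HET libraries and at 9.84, 14.1, 13.9 and 15.1 in the KO libraries. The 8 edited libraries thus formed one range, apart from WT at 0 and with HET and KO overlapping. Against a floor of 3 counts per WT library this is at least 156-fold higher in HET and at least 169-fold higher in KO. At day 3 the HET libraries were at 39.8, 27.9, 38.9 and 53.4 CPM and the KO libraries at 33.1, 22.9, 46.9 and 62.2, at least 585-fold and 604-fold higher than WT. At day 7 the HET libraries were at 82.8, 31.5, 36.8 and 36.3 CPM and the KO libraries at 51.9, 46.5, 42.2 and 42.7, at least 585-fold and 573-fold higher than WT. HET replicate 1 at day 7 stood above the 11 other libraries of that day.

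KO and HET did not differ in MAGEH1 beyond their spread at any day. The log2 difference between KO and HET was 0.12 at day 0 (95% interval -0.18 to 0.42), 0.02 at day 3 (-0.59 to 0.62) and -0.02 at day 7 (-0.58 to 0.54), with edgeR adjusted p of 0.997, 0.987 and 0.982. Within edited cells MAGEH1 rose from day 0 to day 3, by 1.70 log2 in HET (SE 0.30, edgeR adjusted p 0.000509) and by 1.63 in KO (SE 0.26, edgeR adjusted p 9.51e-05). From day 3 to day 7 the log2 difference was 0.22 in HET (SE 0.29) and 0.19 in KO (SE 0.25), and neither passed. In KO the rise to day 3 was also called on the deposited TPM, and in HET the adjusted p on that scale reached 0.144.

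**Figure D1:**
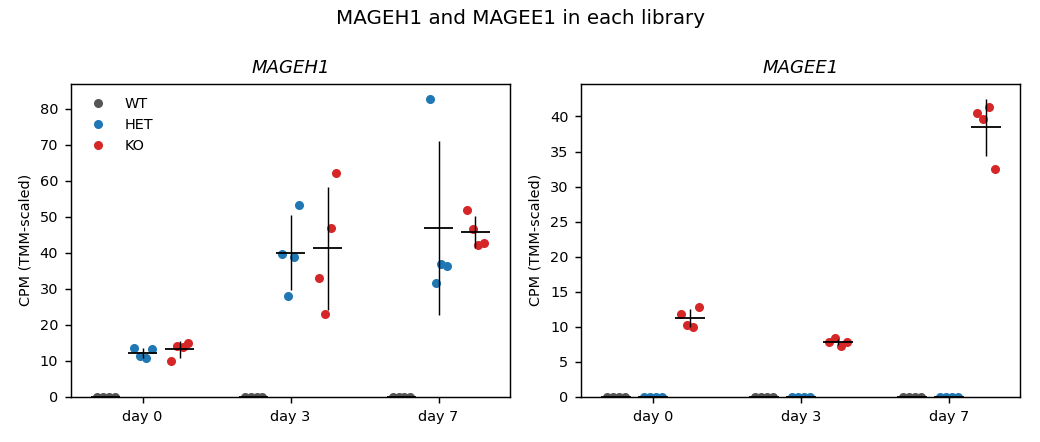
MAGEH1 (left) and MAGEE1 (right) in each of the 36 libraries, as TMM-scaled CPM (vertical axis) by day (horizontal axis), where points are libraries, horizontal lines group means and vertical lines ± SD (n = 4). MAGEH1 is at 0 in WT and overlaps between HET and KO at each day, while MAGEE1 lies near 0 in WT and HET and at 7.32 to 41.4 CPM in KO.

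MAGEE1 (ENSG00000198934, chromosome X, 76427724 to 76431353, plus strand) encodes a MAGE protein found with alpha-dystrobrevin, a component of the dystrophin complex. The description under which it was picked, off in WT and on in edited lines, held for KO alone. MAGEE1 had 0 counts in the 12 WT libraries and in 11 of the 12 HET libraries, and 1 count in HET replicate 3 at day 7. The KO libraries were at 11.8, 10.3, 10.0 and 12.8 CPM at day 0, at 7.87, 8.42, 7.32 and 7.81 at day 3, and at 40.5, 39.6, 41.4 and 32.5 at day 7. Every KO library therefore stood above every WT and HET library of its day. KO was at least 119-fold above HET at day 0 and at least 104-fold at day 3. At day 7 the summed counts were 5713 in KO and 1 in HET, a ratio of 5471 with an exact 95% counting interval of 981 to 216117. MAGEE1 passed the filter on low counts through its KO libraries alone, so these values are a description with no test. Of the other genes tested between KO and HET, 7 at days 0 and 3 and 8 at day 7, edgeR called 0 at each day, against 0.856%, 4.35% and 1.4% of all tested genes. At day 7, MAGEL2, NDN and MAGED1 had an unadjusted p under 0.05, and at days 0 and 3 none of the others did. DESeq2 also called 0 of them at each day.

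MAGEE1 and MAGEH1 also took different courses over time in KO. From day 0 to day 3 MAGEE1 fell by 0.53 log2 in KO (SE 0.13, edgeR adjusted p 0.00324), and from day 3 to day 7 it rose by 2.34 (SE 0.14, edgeR adjusted p 2.32e-08). The KO mean went from 11.2 ± 1.32 CPM to 7.85 ± 0.447 and then to 38.5 ± 4.08. The fall to day 3 kept its direction but did not pass on the deposited TPM (adjusted p up to 0.134), and the later rise passed there too.

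Several genes downstream of MAGEH1 shared its pattern. HET and KO are compared with the same WT libraries here and below. Of the 20 protein-coding genes nearest to it, 10 on each side, 19 were in the count table. The next 3 expressed ones downstream, USP51 (a deubiquitinase, starting 32.5 kb away), RRAGB (a Rag GTPase of amino acid signalling, 266 kb away) and KLF8 (a zinc finger transcription factor, 780 kb away), had at most 2 counts in any WT library and at least 52 in every edited library. RRAGB was at 0 counts in all WT libraries and at 5.34 ± 0.853 CPM in HET and 4.42 ± 0.682 in KO at day 0, at least 68.1-fold and 56.4-fold higher. By day 7 RRAGB reached 23.9 ± 8.74 CPM in HET and 27.4 ± 3.66 in KO, at least 298-fold and 342-fold higher. KLF8 was at 0 in WT at day 0 and at 8.95 ± 2.17 CPM in HET and 8.76 ± 1.78 in KO, at least 114-fold and 112-fold higher. USP51 ran the other way over time, with 20.2 ± 1.17 CPM in HET and 20.1 ± 0.828 in KO at day 0 and 4.73 ± 1.75 and 7.23 ± 1.04 at day 7. Its summed counts at day 0 were 1 in WT against 2637 in HET, a ratio of 3126 (exact 95% counting interval 561 to 123518), and 2613 in KO, a ratio of 3113 (558 to 122991).

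The nearest genes over 3 counts in WT lay on either side of this group. FAM104B, 309 kb upstream of MAGEH1, was counted in all 36 libraries, at 6.53 CPM in WT, 7.02 in HET and 7.38 in KO at day 0. UBQLN2, a ubiquilin gene 1112 kb downstream, was at 68.9, 72.7 and 72.9. Between FAM104B and UBQLN2 (chromosome X, 55161311 to 56563638, a stretch of 1.40 Mb chosen after the values were seen) the annotation places 23 genes of any kind, 22 of which were in the table. Of these 22, 6 exceeded 3 counts in at least 1 HET library and the same number in at least 1 KO library, while 0 did so in WT, where the highest count was 2. The stretch ends at the nearest genes over 3 counts in WT, so the 0 in WT follows from how it was drawn. The 6 were MAGEH1, USP51, RRAGB, KLF8, the lincRNA ENSG00000227486 (up to 219 counts in HET, 233 in KO and 1 in WT) and the pseudogene GOT2P6, which lies within that lincRNA (up to 26, 28 and 0).

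MAGEE1 had no such company among its protein-coding neighbours. All 20 of its nearest ones were in the table, and of the 15 tested at day 0 edgeR called 0 in HET and 0 in KO, against 1.63% and 2.08% of all tested genes, with 1 at an unadjusted p under 0.05 in each. The flanking PBDC1, 255 kb upstream, was at 21.9 CPM in WT, 22.7 in HET and 23.3 in KO at day 0, and ATRX, a chromatin remodeller 1077 kb downstream, was at 162, 169 and 164. Between PBDC1 and ATRX (chromosome X, 76178205 to 77504877) 13 annotated genes were in the table, and 5 of them exceeded 3 counts in at least 1 WT library. Unlike the stretch around MAGEH1, this one was not ended at the nearest gene over 3 counts in WT. The numbers of genes over 3 counts in WT in the stretches therefore cannot be compared. The long noncoding MIR325HG, named after its values were seen, reached 28 counts in a WT library, 452 in a HET library and 1313 in a KO library. The pseudogene TRAPPC13P1 beside it reached 9, 150 and 493. At day 7, 5 of 16 tested neighbours were called in KO, 4 higher and 1 lower, against 32.6% of all tested genes, so the share was near the background. These included the kinase gene PGK1 (1.54 log2, SE 0.31) and the neuronal gene NEXMIF (2.24, SE 0.28), which rose, and MAGT1 (-1.41, SE 0.24), which fell.

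**Figure D2:**
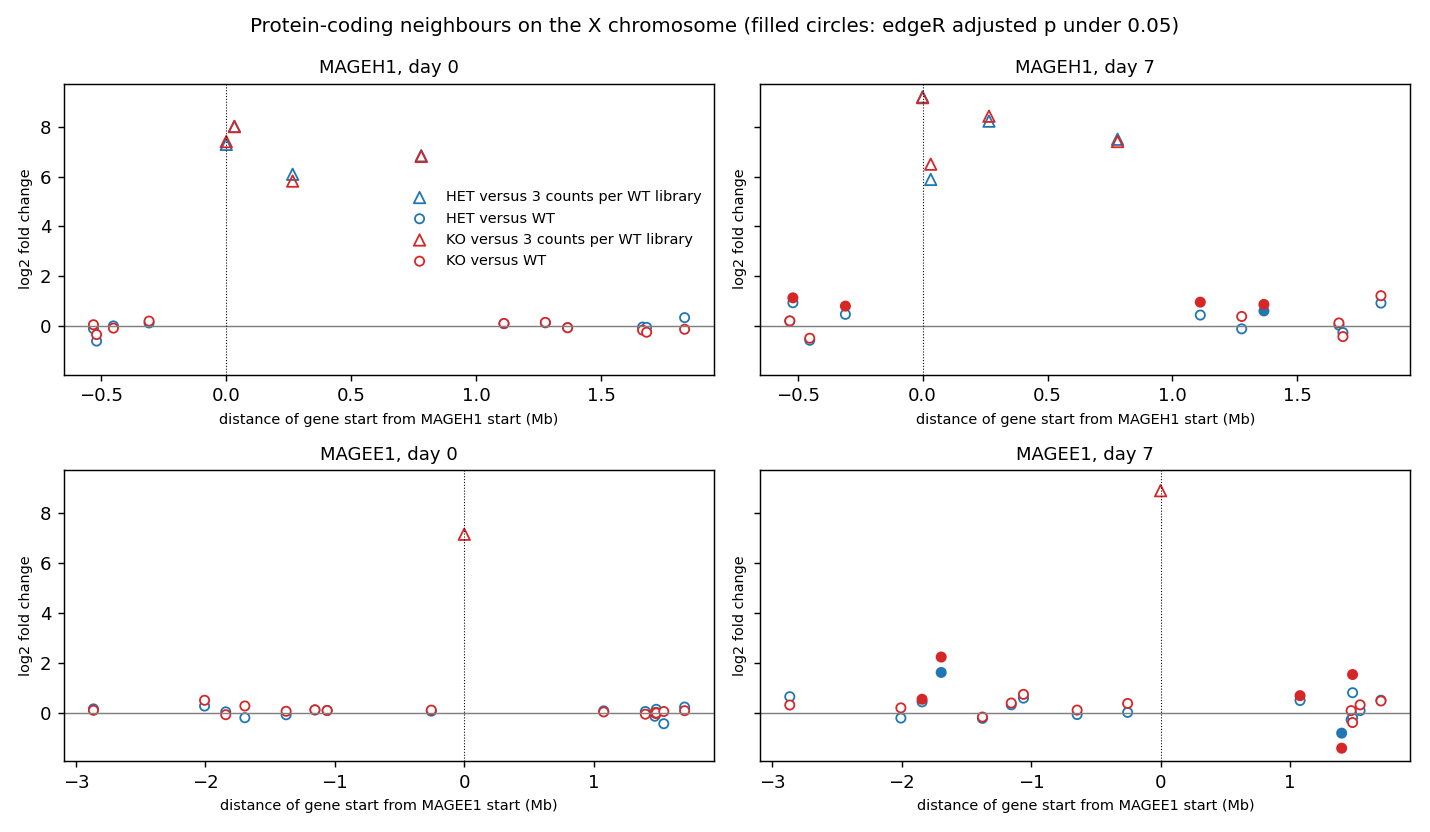
Log2 difference from WT (vertical axis) of the protein-coding neighbours of MAGEH1 (upper panels) and MAGEE1 (lower panels) at days 0 and 7, by the distance in Mb of their starts from the start of that gene (horizontal axis). Circles are edgeR estimates (filled where adjusted p is under 0.05) and triangles are mean CPM against 3 counts per WT library, for genes with 3 or fewer counts in each WT library: MAGEH1, USP51, RRAGB and KLF8 stand together, while MAGEE1 stands alone in KO.

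Few genes in the series had the on and off pattern of these 2. At 3 counts or fewer in every WT library and a mean of at least 5 CPM in all HET and KO groups there were 7 genes. MAGEH1 was the one on X, and the others were PUS7L on chromosome 12, CRYZ and TYW3 on chromosome 1, D21S2088E on chromosome 21 and 2 identifiers without a symbol or position. Lowering the level to 1 CPM gave 15 genes, 7 of them on X. These 7 were MAGEH1, USP51, RRAGB, KLF8, the lincRNA between them, EDA2R and POU3F4. With WT and HET both silent and KO at 5 CPM or more at every day, MAGEE1 was the sole gene, and 0 genes met the 10 CPM level.

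Likeness to MAGEH1 and MAGEE1 was measured as the Pearson correlation of log2(CPM + 1) over the 9 group means, against 13417 genes with a symbol and at least 5 CPM in some group. The genes most like MAGEH1 were IRAK4 (r 0.986, chromosome 12), ZNF737 (0.984), PPIEL (0.981), POTEF (0.974) and ZNF433 (0.974). IRAK4, a kinase of Toll-like receptor signalling, was at 0 CPM in WT at days 0 and 3. The genes most like MAGEE1 were the protocadherin PCDHGB4 (r 0.974), MORF4L2 (0.951), HSPA1A (0.923), YPEL3-DT (0.922) and CASK (0.902). MORF4L2 and CASK, a synaptic scaffold, also lie on X, and both were expressed in WT: MORF4L2 at 257 CPM in WT, 243 in HET and 470 in KO at day 0. These correlations rest on 9 points that share libraries within a group and describe the pattern only.

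NDN (ENSG00000182636, chromosome 15, 23685400 to 23687330, minus strand) encodes necdin, a growth suppressor of postmitotic neurons, and MAGEL2 (ENSG00000254585, chromosome 15, 23643549 to 23647867, minus strand) a subunit of a ubiquitin ligase that acts on endosomal sorting. Both were above WT in KO at day 7 and near WT at day 0. At day 7 NDN was at 31.0, 37.0, 40.8 and 54.2 CPM in WT, at 55.0, 52.6, 71.9 and 52.8 in HET and at 94.0, 78.3, 93.7 and 70.7 in KO. The KO libraries lay above all WT libraries, and the HET libraries overlapped WT by the highest WT library alone. NDN rose in KO by 1.05 log2 (SE 0.18, edgeR adjusted p 0.0011), and in HET the difference was 0.51 (SE 0.18, edgeR adjusted p 0.0816). At days 0 and 3 the NDN differences from WT lay between -0.07 and 0.14 log2 and did not pass.

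MAGEL2 was the lower of the pair and was already called in KO at day 3. At day 3 it was at 11.8, 12.7, 10.2 and 14.7 CPM in WT, at 12.9, 21.9, 22.7 and 14.1 in HET and at 19.8, 29.02, 23.3 and 19.8 in KO. WT and KO did not overlap, and HET overlapped both. MAGEL2 rose in KO at day 3 by 0.88 log2 (SE 0.21, edgeR adjusted p 0.00974), the 1 call among 6 of these genes tested there, against 21.6% of all tested genes. At day 7 it was at 9.14, 14.3, 15.05 and 17.0 CPM in WT, at 17.1, 20.8, 32.9 and 16.4 in HET and at 36.9, 37.1, 48.6 and 27.8 in KO, and the KO libraries again lay above every WT library. The day 7 rise was 1.44 log2 in KO (SE 0.26, edgeR adjusted p 0.00134), and in HET the difference was 0.65 (SE 0.26, edgeR adjusted p 0.111). KO and HET were not told apart at day 7, with differences of 0.79 log2 for MAGEL2 (95% interval 0.29 to 1.29, edgeR adjusted p 0.182) and 0.54 for NDN (0.18 to 0.90, edgeR adjusted p 0.199). The MAGEL2 difference between KO and HET did pass with the share of 5 small structural RNAs in each library as a covariate (adjusted p 0.0376) and with all 36 libraries in the fit (0.0385).

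MAGED1 (ENSG00000179222, chromosome X, 51803007 to 51902357, plus strand), an adaptor of the NGFR receptor also known as NRAGE, joined them at day 7. It was at 264, 230, 317 and 246 CPM in WT, at 446, 353, 407 and 264 in HET and at 504, 539, 534 and 390.5 in KO. All KO libraries exceeded all WT libraries, with HET between and overlapping both. MAGED1 rose in KO by 0.90 log2 (SE 0.19, edgeR adjusted p 0.00298) and differed by 0.47 in HET (SE 0.18, edgeR adjusted p 0.106), while at days 0 and 3 its differences lay between -0.08 and 0.03. Its close relative MAGED2 (ENSG00000102316, chromosome X, 54807599 to 54816012), which is needed for salt handling in the fetal kidney, showed no such difference: at day 7 it was at 252 ± 40.1 CPM in WT, 296 ± 42.2 in HET and 261 ± 26.1 in KO, with a KO difference of 0.06 log2 (95% interval -0.25 to 0.36). The gene models of MAGED1 and MAGED2 contain small RNA genes, and whether counting used strand is not given in the sources used here, so their reads cannot be told apart fully.

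With these 3 calls, all higher, 3 of 7 tested genes were called in KO at day 7, against 32.6% of all tested genes in either direction, so the share is close to the background. Their median difference was 0.12 log2, against -0.04 over all genes. On the deposited TPM the 3 genes kept their direction but the adjusted p rose to as much as 0.132, in a setting in which the median of all genes moved by 0.18. Summed neuronal markers at day 7 ran from 5484 to 11051 CPM in WT and from 10879 to 13757 in KO, with 7 of 7 markers above 1 CPM in each group. Summed proliferation markers ran from 27.2 to 182 in WT and from 10.9 to 12.9 in KO. Summed pluripotency markers ran from 66.9 to 72.4 CPM in WT and from 230.3 to 310.2 in KO, with 3 of 6 above 1 CPM in each group. The list did not move as one: TDGF1 was at 3 counts or fewer in every library of both groups, NANOG in WT and POU5F1 in KO. Summed markers of peripheral neurons and neural crest ran from 62.6 to 196 CPM in WT and from 176 to 369 in KO, with 3 of 4 above 1 CPM in each. The 5 small structural RNAs took 20.4% ± 5.1 of counts in WT and 12.2% ± 2.74 in KO at day 7. The part of these in the 3 differences was not tested. In bulk RNA, fewer cells of a type and less RNA per cell cannot be told apart.

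**Figure D3:**
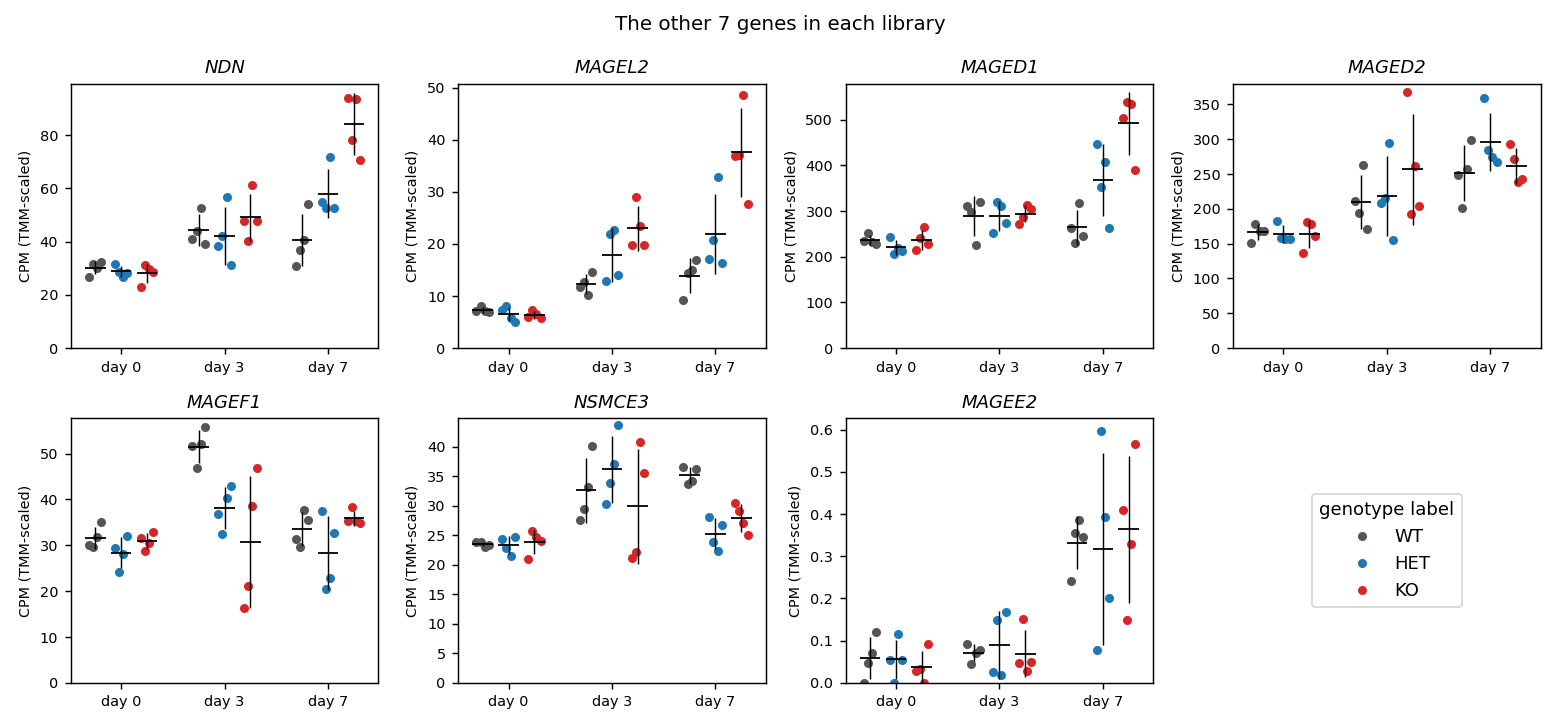
TMM-scaled CPM (vertical axis) by day (horizontal axis) of the other 7 genes in each library; points are libraries, horizontal lines means and vertical lines ± SD (n = 4), and scales differ between panels. NDN, MAGEL2 and MAGED1 in KO at day 7 lie above every WT library, and MAGEE2 stays under 0.6 CPM.

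MAGEF1 and NSMCE3, both tied to DNA maintenance, were not called higher than WT in edited cells at any day. MAGEF1 (ENSG00000177383, chromosome 3, 184710367 to 184712002, minus strand) directs a ubiquitin ligase against an iron-sulphur cluster assembly factor. At day 3 it was at 51.5, 46.9, 52.0 and 55.7 CPM in WT, at 36.7, 32.4, 40.3 and 42.8 in HET and at 16.3, 21.1, 38.5 and 46.8 in KO. The WT libraries lay above all HET and all KO libraries, and the KO libraries fell into a low and a high pair. The differences from WT were -0.42 log2 in HET (SE 0.27, edgeR adjusted p 0.548) and -0.76 in KO (SE 0.27, edgeR adjusted p 0.0611), and neither passed. The KO difference did pass, at -0.66 to -0.86 log2, with library size alone, the replicate block (adjusted p 0.00676), the structural RNA covariate, DESeq2 (0.0493), TPM with TMM factors or all 36 libraries in the fit (0.00642). The low pair, KO replicates 1 and 2, held 4.92% and 3.54% of their counts in small structural RNAs and the high pair 14.9% and 18.8%. The part of that share was not tested.

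NSMCE3 (ENSG00000185115, chromosome 15, 29264992 to 29269829, minus strand, overlapping FAM189A1 on the same strand, so that its level is uncertain) encodes a subunit of the SMC5/6 complex, which guards chromosomes during repair. At day 7 it was at 36.5, 33.6, 34.2 and 36.3 CPM in WT, at 28.1, 23.9, 22.4 and 26.7 in HET and at 30.4, 29.1, 27.0 and 25.05 in KO. Every HET and KO library lay below every WT library. By edgeR on counts NSMCE3 fell by 0.48 log2 in HET (SE 0.12, edgeR adjusted p 0.0201), although on the deposited TPM the HET difference was 0.35 in the opposite direction, with the median of all genes at 0.46 there. It was the 1 call among 7 of these genes tested in HET, against 14.4% of all tested genes, and it no longer passed without HET replicate 2 (edgeR adjusted p 0.0752) or HET replicate 3 (0.0824). The KO difference was -0.33 (SE 0.12, edgeR adjusted p 0.0539). At day 0 edgeR called 0 of 6 tested genes in HET and 0 in KO, against 1.63% and 2.08% of all tested genes. Their log2 differences lay between -0.18 and 0.05, 0 had an unadjusted p under 0.05, and DESeq2 also called 0. At day 3 edgeR called 0 of 6 in HET, against 3.28%. There 1 gene, MAGEL2, had an unadjusted p under 0.05, and DESeq2 called 0.

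**Figure D4:**
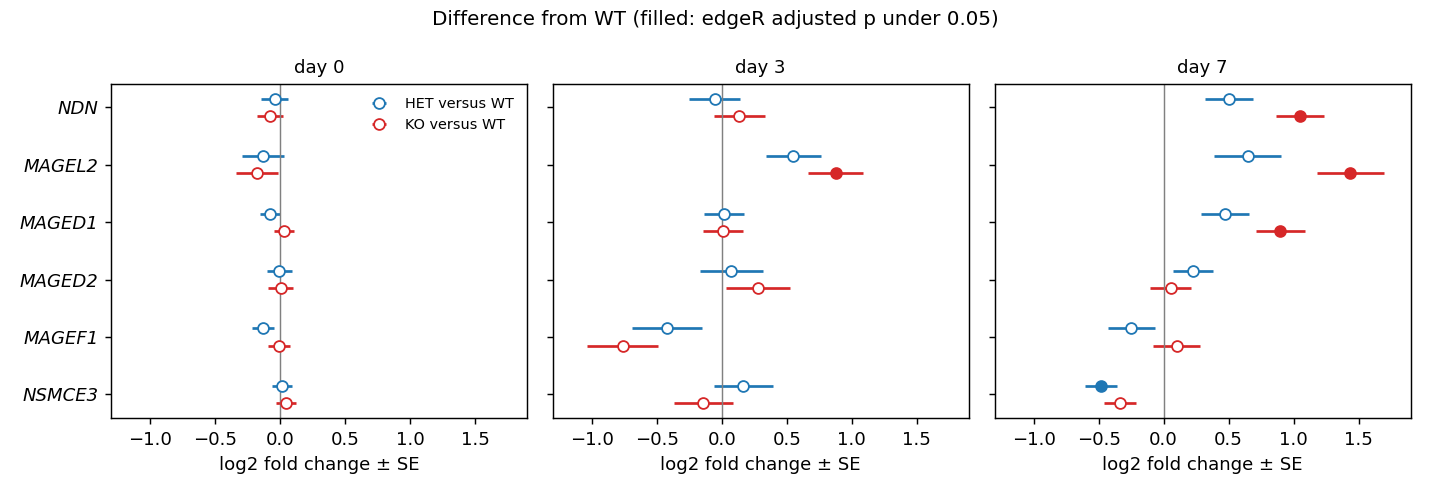
Log2 difference from WT ± SE (horizontal axis) of 6 genes (vertical axis) at each day, from edgeR on 12 libraries per day; filled points have an adjusted p under 0.05. The points cluster around 0 at day 0 and spread at day 7, where NDN, MAGEL2 and MAGED1 in KO and NSMCE3 in HET are filled.

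MAGEE2 (ENSG00000186675, chromosome X, 75782988 to 75785236, minus strand), 645 kb upstream of MAGEE1, was barely detected in any genotype. It had 0 to 4 counts per library at day 0, 1 to 7 at day 3 and 3 to 22 at day 7, where its means were 0.332 ± 0.0623 CPM in WT, 0.317 ± 0.227 in HET and 0.364 ± 0.174 in KO. It passed the filter on low counts in the genotype fit at day 7 and in the interaction fits, and no difference was called in these. In the reported fits its change between days within a genotype was not tested. From day 3 to day 7 in WT, no filter, DESeq2 or all 36 libraries in the fit gave 2 calls instead of 1. No gene of the reported fit changed its call there, and MAGEH1 and MAGEE1 were at 0 in WT, which leaves MAGEE2. Of the 33 type I symbols in the table, 27 stayed at 3 counts or fewer in all 36 libraries and 0 reached a mean of 1 CPM in any group. Of the 3 other type II genes, edgeR called 2 in KO at day 3, against 21.6% of all tested genes, and 2 at day 7, against 32.6%. It called 0 in KO at day 0, against 2.08%, and 0 in HET at days 0, 3 and 7, against 1.63%, 3.28% and 14.4%. Of these, 1 in KO at day 0 and 2 in HET at day 7 had an unadjusted p under 0.05. TRO rose in KO at day 3 by 0.59 log2 (SE 0.18, edgeR adjusted p 0.0345). MAGED4 rose in KO by 1.09 at day 3 (SE 0.32, edgeR adjusted p 0.0273) and 0.91 at day 7 (SE 0.18, edgeR adjusted p 0.00231), and MAGED4B by 0.90 at day 7 (SE 0.20, edgeR adjusted p 0.00396). MAGED4 and MAGED4B are near-identical copies whose reads may have been divided between them.

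The course of induction moved several of these genes, at shares close to or under those of all genes. From day 0 to day 3 in WT, edgeR on counts called 4 of 6 tested genes, all higher, against 60% of all tested genes in either direction: MAGEL2 by 0.75 log2, MAGEF1 by 0.70, NDN by 0.55 and NSMCE3 by 0.47. On the deposited TPM the same 4 differences were -0.14, -0.30, -0.44 and -0.43 and did not pass, with the median of all genes at -0.38, so their direction depends on the scaling. From day 3 to day 7 in WT 1 of 6 changed, against 46.2%: MAGEF1 fell by 0.62 (SE 0.12, edgeR adjusted p 0.000586).

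In HET, 4 of 7 tested genes were called from day 0 to day 3, all higher, against 48.3%: MAGEH1, MAGEL2 by 1.43, NSMCE3 by 0.62 and NDN by 0.54 (the last lost without HET day 0 replicate 2, 3 or 4 or HET day 3 replicate 3, edgeR adjusted p up to 0.0808), of which NSMCE3 and NDN were at -0.10 and -0.21 on the deposited TPM. From day 3 to day 7 in HET, NSMCE3 fell by 0.52 (SE 0.15, edgeR adjusted p 0.0134), 1 of 7 against 41.2%. In KO, 5 of 8 tested genes changed from day 0 to day 3, against 59.3%: MAGEL2 rose by 1.83, MAGEH1 by 1.63, NDN by 0.79 and MAGED2 by 0.63, and MAGEE1 fell. From day 3 to day 7 in KO, 4 of 8 were called, all higher, against 47.8%: MAGEE1 by 2.34, NDN by 0.82, MAGED1 by 0.79 and MAGEL2 by 0.76.

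Interaction terms, fitted on all 36 libraries, compared the genotypes in how far each gene moved between days. From day 0 to day 3, MAGEL2 rose more in KO than in WT by 1.10 log2 (SE 0.32, edgeR adjusted p 0.025), the 1 call among 7 against 8.55% of all tested genes. From day 3 to day 7, 3 of 7 were called, against 18.5%: NDN by 0.90 (SE 0.24, edgeR adjusted p 0.00675), MAGED1 by 0.87 (SE 0.20, edgeR adjusted p 0.00178) and MAGEF1 by 0.85 (SE 0.29, edgeR adjusted p 0.037), each change being more positive in KO than in WT. MAGEF1 fell by 0.62 in WT, while its change of 0.27 in KO did not pass. Its level in KO at day 7 differed from WT by 0.10 (edgeR adjusted p 0.698). For HET edgeR called 0 of 7 in either interval, against 0.271% and 4.74%, with 1 and 3 at an unadjusted p under 0.05 and 0 by DESeq2. The MAGEL2 call was lost without WT day 0 replicate 2, KO day 0 replicate 1 or 4, WT day 3 replicate 1 or 3, or KO day 3 replicate 2 (1.10 became 0.96 to 1.06, adjusted p up to 0.0729). With library size alone MAGEL2 was also lost (edgeR adjusted p 0.0502), and MAGEF1 passed instead (-0.79 log2, 0.0302). The MAGEF1 call from day 3 to day 7 was lost without WT day 3 replicate 3 or 4, KO day 3 replicate 1 or 2, WT day 7 replicate 1 or 2, or KO day 7 replicate 1, 2 or 3 (0.85 became 0.69 to 0.86, adjusted p up to 0.0742). It was also lost with no filter (edgeR adjusted p 0.0606) and with only the groups compared (0.0645).

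Ranked by TPM, which allows genes to be compared per length, MAGED1 and MAGED2 were the highest of the 9 genes in all 36 libraries, with median levels of 67.3 and 66.2 TPM. The pair was not ordered, since MAGED1 was the higher in 20 of the 36. Lower down, NDN and MAGEF1 had medians of 13.3 and 13.6 TPM, and NDN was above MAGEF1 in 16 libraries. NSMCE3 (median 3.31 TPM) was below MAGEF1 in every library and above MAGEL2 (1.39 TPM) in 29. The place of MAGEH1 in edited cells depended on the day. At day 0 it lay below MAGEF1 and above NSMCE3 in all 8 edited libraries, at 8.12 ± 0.682 TPM in HET, and at days 3 and 7 it lay above MAGEF1 in all 16, at 16.4 ± 2.50 TPM in KO at day 7. In KO, MAGEE1 was at 2.51 ± 0.405 TPM at day 0 and 4.87 ± 1.14 at day 7.

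The genes that work with these proteins were followed through lists chosen with earlier results known. Of 8 further SMC5/6 genes, edgeR called 0 at day 0 (1 in HET and 0 in KO at an unadjusted p under 0.05), against 1.63% of all tested genes in HET and 2.08% in KO. At day 3 it called 0 in HET, against 3.28%, with 1 at an unadjusted p under 0.05. In KO at day 3, 4 fell, against 21.6% of all tested genes, with a median of -0.53 log2 over the list. The largest falls were SLF2 (-1.03, SE 0.15), NSMCE4A (-0.84, SE 0.23) and SLF1 (-0.67, SE 0.18). At day 7, 2 of 8 fell in KO, SMC6 (-0.85, SE 0.23) and SLF2 (-0.61, SE 0.18), against 32.6% of all tested genes, while in HET edgeR called 0, against 14.4%, with 0 at an unadjusted p under 0.05. Summed proliferation markers, from 985 to 1975 CPM in WT and from 364 to 1054 in KO at day 3, moved alongside, and their part was not tested. Of 12 genes of the MAGEL2 ligase, WASH and retromer, which together return receptors from endosomes, 1 was called in the 6 comparisons with WT. This was VPS26B in KO at day 7 (0.45 log2, SE 0.15), against 32.6% of all tested genes. In KO 0 were called at days 0 and 3, against 2.08% and 21.6%. In HET 0 were called at days 0, 3 and 7, against 1.63%, 3.28% and 14.4%. An unadjusted p under 0.05 was held by 4 in KO at day 7, 2 in KO at day 3, 1 in HET at day 0 and 0 in the other comparisons with WT.

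Of 15 reported partners of type II MAGE proteins, 13 were tested at day 7, where 5 rose and 1 fell in HET, against 14.4% of all tested genes, and 6 rose and 1 fell in KO, against 32.6%. NGFR, the p75 neurotrophin receptor bound by MAGED1 and MAGEH1, rose by 1.80 log2 in HET (SE 0.40) and 2.36 in KO (SE 0.41). DTNA, which encodes alpha-dystrobrevin, rose by 1.39 in HET (SE 0.29) and 2.07 in KO (SE 0.30), and FEZ1, a kinesin adaptor that binds necdin, by 1.58 (SE 0.36) and 2.07 (SE 0.37). E2F1, a cell cycle factor bound by necdin, fell by 1.23 in HET (SE 0.31) and 2.18 in KO (SE 0.32). XIAP, an X-linked apoptosis inhibitor bound by MAGED1, was set apart in HET: at day 0 it was at 146 ± 8.25 CPM in HET against 68.6 ± 4.06 in WT and 65.9 ± 3.15 in KO. It rose in HET by 1.12 log2 (SE 0.07) and was lower in KO than in HET by -1.15 log2 (SE 0.07, edgeR adjusted p 5.84e-07).

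The other imprinted genes around NDN and MAGEL2 gave a mixed picture. Of 7, 5 were tested at days 0 and 3, and edgeR called 0 in each comparison with WT, with at most 2 at an unadjusted p under 0.05. The shares of all tested genes there were 1.63% in HET and 2.08% in KO at day 0, and 3.28% and 21.6% at day 3. At day 7, of 6 tested, SNHG14, the long noncoding host of the region's small nucleolar RNAs, rose in HET by 0.88 log2 (SE 0.26). In KO, MKRN3 rose by 1.31 (SE 0.40) and SNRPN by 0.53 (SE 0.14). NPAP1, at 0.651 ± 0.467 CPM in WT, was lower in KO by 4.43 (SE 0.93). That places KO near the floor, so NPAP1 passed the filter on low counts through other groups and its fall is a description. The calls are 1 of 6 in HET, against 14.4% of all tested genes, and 3 of 6 in KO with NPAP1 included, against 32.6%. UBE3A, the maternally expressed Angelman ligase, was at 180.3 ± 14.0 CPM in WT, 194 ± 48.1 in HET and 189 ± 23.8 in KO at day 7. On the X chromosome as a whole 8.2% of tested genes were called in HET and 5.71% in KO at day 0, against 1.63% and 2.08% of all tested genes, and 41.5% in KO at day 7, against 32.6%.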

How the data were processed

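RNA from 36 cultures of H9 cells was sequenced after ribosomal RNA depletion as 151-base read pairs. Per the submitters' processing notes, tools included cutadapt 4.8, FastQC 0.11.8, MultiQC 1.20, STAR 2.7.8a and RSEM 1.3.3 with GRCh38. The annotation release and strand setting are not given in the sources used here. An FPKM table was not used. The authors deposited estimated counts per gene (expected counts in RSEM's terms, though each value is a whole number) and TPM, which RSEM scales by gene length and to a fixed total, so that a large RNA class lowers all other values. Depth was 23948079 to 56678796 counts per library, and 3 counts per library was taken as the floor. Bounds and counting intervals cover counting error only.

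From the counts, after leaving out 4 reporter features (at most 0.0171% of counts), edgeR 4.0.16 was used in R 4.3.3 with TMM scaling, its filter on low counts, the quasi-likelihood F test and Benjamini-Hochberg adjustment over all tested genes, calling an adjusted p under 0.05. Genotypes were compared within a day on the 12 libraries of that day, days within a genotype on its 12 libraries, and interactions on all 36. MAGEH1 and MAGEE1 were not counted in comparisons with WT. Alternatives were other size factors, no filter, a replicate block, the share of 5 structural RNAs (RN7SL1, RN7SL2, RN7SK, RPPH1, RMRP) as a covariate, DESeq2 1.42.0, limma 3.58.1 on log2(TPM + 1) and log2(TPM + 0.1), other sets of libraries, and leaving out each library. TPM with TMM factors, the other on and off patterns and the stretches around MAGEH1 and MAGEE1 were added after seeing the data. The scripts were tested on simulated data. Tables and plots used Python 3.11.15, pandas 2.3.3 and matplotlib 3.10.9.

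The family genes and the lists were chosen with earlier results of these data known. Named besides the 9 genes were the 5 genes most like MAGEH1 and MAGEE1, genes with the same on and off pattern, up to 3 called genes per list and comparison by size of log2 difference, the nearest 10 protein-coding genes on each side, and RAI1. Whether replicate numbers mark shared cultures is not given in the sources used here. Same-numbered libraries deviated together in all 4 pairs for KO against WT at day 0 (r 0.137 to 0.335) and HET against WT at day 3 (0.104 to 0.614). With the block, 0 of the 6 tested family genes were called in either comparison. Over all tested genes the share called rose with the block from 2.08% to 4.70% and from 3.28% to 8.79%. It also rose at day 3 from 21.6% to 37.7% for KO against WT and from 4.35% to 12.7% for KO against HET. In those comparisons not all 4 pairs deviated together. In each comparison of days within a genotype the share fell, as from 46.2% to 43.1% in WT from day 3 to day 7.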

Additional observations from a re-analysis of the deposited data

Results flagged for a closer look

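In 5 of 70 groups of 4 libraries, 1 library stood apart from the other 3 by Dixon's test at the 95% level, where chance gives about 3.5. MAGEH1 was at 82.8 CPM in HET day 7 replicate 1, the other 3 lying between 31.5 and 36.8, and that library held 27.5% of its counts in structural RNAs. MAGED2 was at 183 CPM in HET day 0 replicate 1, MAGEF1 at 38.4 in KO day 7 replicate 2, MAGEL2 at 8.13 in WT day 0 replicate 2 and NDN at 71.9 in HET day 7 replicate 3.

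An interaction term in edgeR separated KO from WT in the size of a change between days for 4 genes. From day 0 to day 3 the difference was 1.10 log2 for MAGEL2. From day 3 to day 7 it was 0.85 for MAGEF1, 0.87 for MAGED1 and 0.90 for NDN.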

How the results depend on the processing

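The 1010 alternative values include counts of genes called, which cannot reverse. Among the log2 differences, 14 reversed, all on TPM without TMM factors, where the median of all genes moved as well. Another 67 kept their direction but no longer passed. On log2(TPM + 1) and log2(TPM + 0.1), NSMCE3 in HET against WT at day 7 was 0.35 and 0.41. From day 0 to day 3 in WT, MAGEF1 was -0.30 and -0.32, NDN -0.44 and -0.48, NSMCE3 -0.43 and -0.55, and MAGEL2 -0.14 and -0.26. In HET, NDN was -0.21 and -0.24 and NSMCE3 -0.10 and -0.13. The all-gene medians on log2(TPM + 1) were -0.38 in WT and -0.30 in HET for day 0 to day 3, and 0.46 for HET against WT at day 7. With TMM factors on TPM, chosen after seeing the data, 0 values reversed.

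Counts of genes called moved by more than 1.5 times as follows. KO against WT at day 3 (1, MAGEL2) became 2, with MAGEF1 added, with library size alone, the replicate block, the structural RNA covariate, DESeq2, TPM with TMM factors or all 36 libraries, 0 on TPM, and 1 to 2 without single libraries. HET against WT at day 7 (1) became 0 with no filter, only the groups compared or TPM, 4 with all 36 libraries (NDN, MAGEL2 and MAGED1 added), and 0 to 2 without single libraries. KO against WT at day 7 (3) became 0 on TPM. KO against HET at day 7 had 0 calls with MAGEE1, described without a test, set aside. MAGEL2 was called there with the covariate, all 36 libraries or without HET day 7 replicate 3 (edgeR adjusted p 0.0344). In WT, day 0 to day 3 (4) became 2 with the covariate (MAGEF1 and MAGEL2). On TPM it also became 2, but these were MAGED1 (-0.83 and -0.84 on the 2 scales) and MAGED2 (-0.71 and -0.72), lower at day 3, and 0 of the 4 passed. In WT, day 3 to day 7 (1) became 2 with no filter, DESeq2 or all 36 libraries, and 1 to 3 without single libraries. In HET, day 0 to day 3 (4) became 0 on TPM, and day 3 to day 7 (1) became 2 with either other size factor or DESeq2, 3 with the replicate block or TPM with TMM factors, 4 with the covariate, 5 with all 36 libraries, 0 on TPM, and 1 to 3 without single libraries. In KO, day 0 to day 3 (5) became 1 and 2 on the 2 TPM scales, and day 3 to day 7 (4) became 1. The KO interaction to day 3 (1) became 2 with the covariate or TPM with TMM factors, 0 on TPM, and 0 to 2 without single libraries, and that to day 7 (3) became 0 on TPM. The 7 genes off in WT became 15 at 1 CPM and 2 at 10 CPM. The cause of these moves was not tested. The replicate block changed no other count of genes called.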

Other observations

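Among genes on in some genotypes and off in others at 5 CPM, the reverse pattern of MAGEE1 was seen for 1 gene, NLRP2 on chromosome 19. It was at 11.8 to 101.9 CPM in the WT and HET libraries and at 3 counts or fewer in each KO library.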
